A study of Bos taurus with 5 samples.

Results

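The mRNAs examined here encode RNA-binding proteins that hold maternal messages in store: the cytoplasmic polyadenylation element binding proteins CPEB1, CPEB2, CPEB3 and CPEB4, the zygote arrest proteins ZAR1 and ZAR1L, the germ-cell Y-box protein YBX2, the repressor proteins PATL2 and DDX6, and the germ-cell protein DAZL. They were chosen by gene name as 10 of the 27607 genes in the authors' deposited expression table, of which 19766 carry a name, and each name matched 1 row. The samples were 5 pools of 100 cattle (Bos taurus) embryos grown in vitro. In 3 pools the embryos came from high-performing sires and in 2 pools from low-performing sires, and the labels define neither performance nor the number of bulls. The labels put the embryos at the 4-cell stage and the series text at 2 to 4 cells, and recombinant Wnt5A is listed as a treatment, without a dose, for each of the 5 pools.

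A growing oocyte transcribes far more mRNA than it translates, and packs the surplus into repressed ribonucleoprotein particles with short poly(A) tails. CPEB proteins bind a uridine-rich element in the 3' untranslated region and switch such messages from repression to polyadenylation and translation when meiosis resumes. Until the embryonic genome is activated, which in cattle happens after the first cleavages, the embryo lives on these stored messages, so the mRNAs of the storage proteins in a cleaving embryo are themselves largely maternal.

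Values are RPKM, reads per kilobase of gene and per 1000000 reads counted in genes, as computed by the authors. The pools held 67248924 to 113100809 reads in genes, and the storage genes had between 873 reads (CPEB2 in low-performing pool 2) and 249113 reads (CPEB1 in high-performing pool 1). All 10 genes reached an RPKM of 1 in 2 pools or more, the filter for testing, as did 12448 genes in all. A positive fold change means that the low-performing pools were higher, on the scale of log2(RPKM + 1), and comes a standard error, a 95% interval and a p-value from limma fitted on all 12448 genes with Benjamini-Hochberg adjustment over all of them. Whether pools of a group were fertilised or cultured separately is not stated in the labels, so a p-value reflects only how far these pools spread, a spread that may be technical. In pooled RNA, fewer cells carrying an mRNA and less of it per cell cannot be told apart.

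The pools carried the marker mRNAs of the oocyte and early embryo. All 12 markers on that list passed the filter, with a summed level of 10712 to 15438 RPKM in the high-performing and 18594 to 25398 RPKM in the low-performing pools, most of it from BTG4. Of 12 cumulus and granulosa markers 7 passed, at summed levels of 199.5 to 223 RPKM and 192 to 202 RPKM, most of it STAR. HAS2 followed at 15.4 to 29.0 RPKM over all pools, while FSHR stayed at or under 0.0736 RPKM. Of 12 sperm markers 4 passed, at summed levels of 22.0 to 23.0 RPKM and 27.4 to 37.6 RPKM, most of it from ODF2, ACRV1 and SPA17. ODF2 had 8.52 to 12.3 RPKM over all pools. ACRV1 had 5.67 to 5.91 RPKM in the high-performing pools and 9.03 and 16.6 RPKM in the low-performing pools. SPA17 had 3.04 to 4.23 RPKM and then 5.40 and 10.6 RPKM. The sperm nuclear protein genes PRM2 and TNP1 were at 0 in every pool. Of 10 blood and immune markers 2 passed, at summed levels of 16.5 to 19.0 RPKM and 17.5 to 19.7 RPKM. Most of it was CSF1R, at 14.4 to 16.9 RPKM over all pools, and HBB was at 0 in every pool. The part of these markers in the results for the storage genes was not tested.

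The storage genes spanned a wide range of levels. ZAR1L, CPEB1, ZAR1 and YBX2 were among the most abundant mRNAs of the embryos, at mean RPKM over the 5 pools of 1049, 668, 528 and 379, which placed them at ranks 31, 62, 79 and 145 of the 12448 genes tested. PATL2 followed at 65.9 RPKM, DAZL at 36.1 RPKM and CPEB4 at 21.2 RPKM. CPEB2 at 9.14, DDX6 at 8.34 and CPEB3 at 7.19 RPKM lay close to the middle of all genes tested, at percentiles 45.4, 43.2 and 39.9. ZAR1L exceeded CPEB1, ZAR1 exceeded YBX2 and YBX2 exceeded PATL2 in all 5 pools with no overlap of their ranges. CPEB1 exceeded ZAR1 in 4 pools, the exception being low-performing pool 2, and CPEB2 exceeded DDX6 in only 3 pools, so these neighbours were not separated. PATL2 exceeded DAZL in 5 of 5 pools with no overlap, whereas the ranges of DAZL and CPEB4 overlapped although DAZL was the higher in each pool. The ranges of CPEB4 and CPEB2 also overlapped, with CPEB4 higher in each pool, and DDX6 exceeded CPEB3 in 4 of 5 pools.

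**Figure D1:**
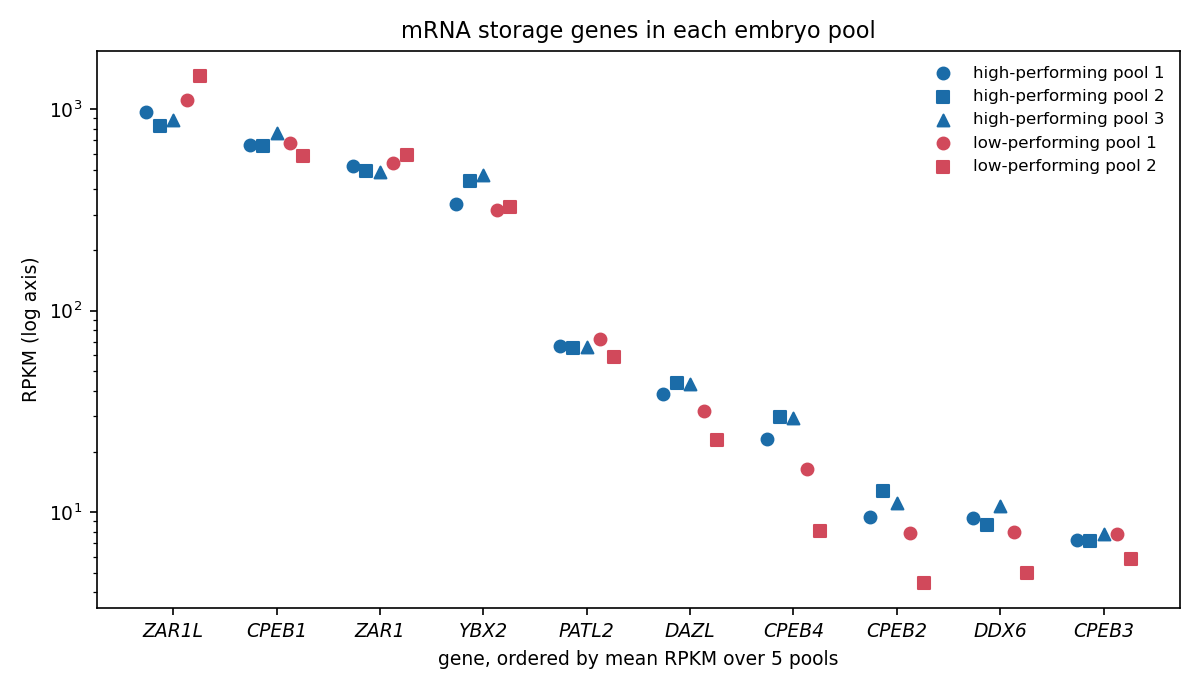
RPKM on a log axis of the 10 storage genes in each of the 3 high-performing (blue) and 2 low-performing (red) pools, 1 mark per pool, ordered by mean RPKM. ZAR1L, CPEB1, ZAR1 and YBX2 hold the 4 highest places, at 317 RPKM or more in every pool, and CPEB2, DDX6 and CPEB3 the lowest, at 12.7 RPKM or less.

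Between the sire groups, the difference within these genes ran in both directions. CPEB4, CPEB2, DAZL, DDX6 and YBX2 were lower in both low-performing pools than in every high-performing pool, ZAR1L and ZAR1 were higher in both, and CPEB1, CPEB3 and PATL2 overlapped. That makes 7 of 10 genes without overlap, 5 lower and 2 higher, beside 58.7% of all genes tested, 29.3% lower and 29.4% higher; the storage genes' share of 70.0% lies near that background. None of the 10 reached an adjusted p under 0.05 in limma, where 0% of the 12448 genes did and the smallest adjusted p was 0.0829. At an unadjusted p under 0.05 there were 5 of the 10, CPEB4, CPEB2, DAZL and DDX6 lower and ZAR1L higher, beside 34.9% of all genes (4348). The median log2 fold change of the 10 was -0.25 (-0.13 without low-performing pool 2), with 8 below 0, beside a median of -0.03 and 53.3% below 0 over all genes tested. In limma voom on the reads recovered from RPKM the count of genes called was also 0. Leaving out a low-performing pool leaves 1 pool in that group, so only the size of a difference is given for such fits.

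The authors' deposited table, from their own test of the same pools and so no independent evidence, called 4 of the 10 at an FDR under 0.05. These were CPEB4, CPEB2 and DAZL lower and ZAR1L higher in the low-performing pools. Over the whole of the authors' deposited table, 7.95% of all 27607 genes were called, 2.45% lower and 5.51% higher, and 16.1% of the genes tested here.

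**Figure D2:**
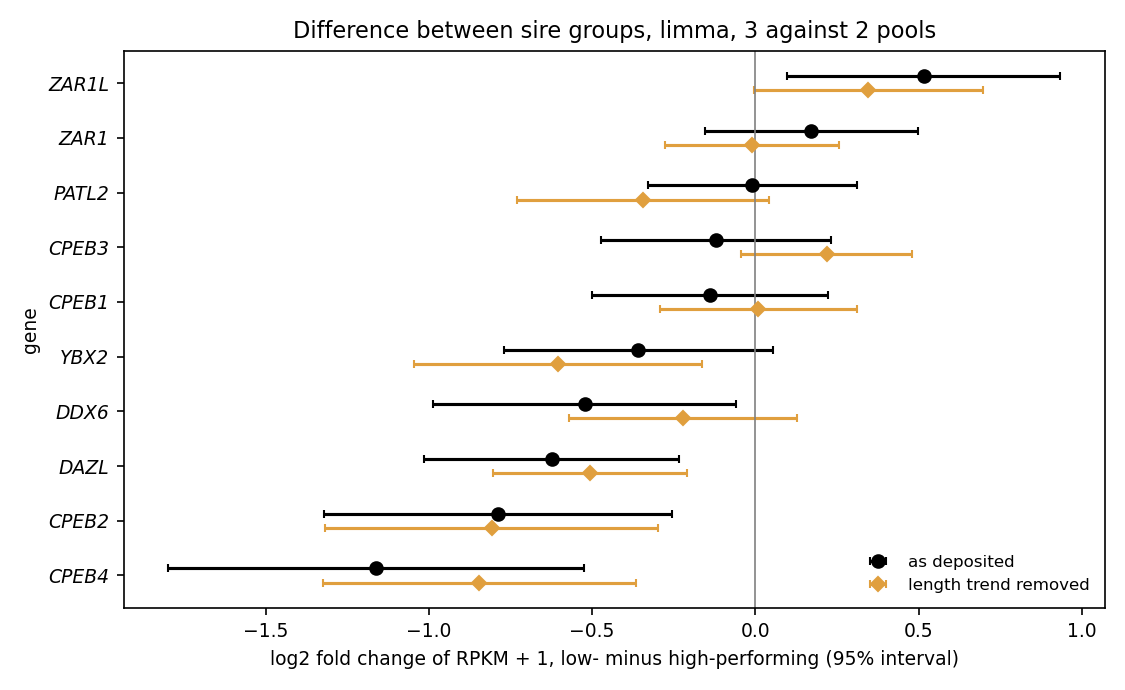
Log2 fold change of RPKM + 1, above 0 where low-performing pools are higher, for each storage gene with its 95% interval (limma, 3 against 2 pools), from the values as deposited (black circles) and with each pool's trend over gene length removed (orange diamonds). CPEB4, CPEB2 and DAZL lie below 0 with intervals clear of 0 in both. The estimates of CPEB1, CPEB3 and ZAR1 change sign when the trend is removed, with intervals that include 0 in both. The intervals of DDX6 and ZAR1L are clear of 0 only as deposited, and that of YBX2 only with the trend removed.

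The CPEB family was almost wholly CPEB1, the form that controls meiotic maturation in frog and mouse oocytes. CPEB1 (ENSBTAG00000000623, chromosome 21, positions 22846025 to 22955571, minus strand of the ARS-UCD1.2 build, 12 merged exons) had 664, 658 and 757 RPKM in high-performing pools 1, 2 and 3 and 677 and 583 RPKM in low-performing pools 1 and 2. The groups overlapped, since low-performing pool 1 lay inside the high-performing range and pool 2 under it. Group means were 693 ± 55.8 RPKM for the high-performing (SD, n = 3) and 630 ± 66.4 RPKM for the low-performing pools (SD, n = 2). The log2 fold change was -0.14 ± 0.15 (SE), with an interval of -0.50 to 0.22 (limma, adjusted p = 0.536), and -0.45 with quantile normalization, which forces the same distribution on every pool. CPEB1 stood at -0.03 without low-performing pool 2, at -0.25 without low-performing pool 1 and at -0.07 without high-performing pool 3.

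CPEB4, which in frog oocytes takes over from CPEB1 late in meiosis, showed the widest gap of the 10. The gene (ENSBTAG00000009995, chromosome 20, positions 5606065 to 5678507, plus strand) had 22.9, 29.6 and 29.2 RPKM in the high-performing pools and 16.4 and 8.06 RPKM in the low-performing pools. Every high-performing pool lay above both low-performing pools, and low-performing pool 2 was the lowest by far. The low-performing mean was 0.449 of the high-performing mean. CPEB4 had a log2 fold change of -1.16 ± 0.27 (SE), with an interval of -1.80 to -0.53 (limma, adjusted p = 0.0829), and the authors' deposited table gave -1.16 with an FDR of 0.00252. Taken with each low-performing pool alone, CPEB4 stood at -0.69 without low-performing pool 2 and at -1.63 without low-performing pool 1.

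CPEB2 (ENSBTAG00000019847, chromosome 6, positions 110152224 to 110215989, plus strand), a close relative of CPEB4, was the other family member with separate groups. It had 9.44, 12.7 and 11.2 RPKM in the high-performing pools and 7.87 and 4.48 RPKM in the low-performing pools. Again low-performing pool 2 was the lowest and pool 1 lay nearer to the high-performing range. CPEB2 had a log2 fold change of -0.79 ± 0.23 (SE), with an interval of -1.32 to -0.26 (limma, adjusted p = 0.0841), and the authors' deposited table gave -0.85 with an FDR of 0.0186. It stood at -0.44 without low-performing pool 2 and at -1.14 without low-performing pool 1.

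CPEB3 (ENSBTAG00000015450, chromosome 26, positions 13528540 to 13779279, minus strand), known mainly from neurons, had 7.24, 7.23 and 7.84 RPKM in the high-performing pools and 7.75 and 5.87 RPKM in the low-performing pools. Low-performing pool 1 lay within the high-performing range and pool 2 under it. CPEB3 had a log2 fold change of -0.12 ± 0.15 (SE), with an interval of -0.47 to 0.23 (limma, adjusted p = 0.583). It turned to 0.05 without low-performing pool 2. The exons of CPEB3 share 360 bases with those of MARCHF5 on the other strand, which had a mean of 20.2 RPKM. The library kit was stranded, but the sources used here do not give the strand setting of the counting, so whether reads of MARCHF5 enter the CPEB3 value is not known.

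The make-up of the family can be read within a pool, where the scaling between pools drops out. Differences that go with gene length, given below, do not drop out. CPEB1 made up 94.4%, 93.0% and 94.0% of the summed RPKM of the 4 CPEB mRNAs in the high-performing pools and 95.5% and 96.9% in the low-performing pools. CPEB4 made up 3.26%, 4.18% and 3.62% against 2.31% and 1.34%. Both shares were therefore separate between the groups, CPEB1 on the high side and CPEB4 on the low side in the low-performing pools. The 4 shares add up to the whole, so the higher CPEB1 share mirrors the lower CPEB4 and CPEB2 shares and is not a separate result. CPEB2 made up 1.34%, 1.80% and 1.38% against 1.11% and 0.745%, also separate, while CPEB3 stayed between 0.973% and 1.09% in all 5 pools with the groups overlapping. For CPEB1, CPEB2 and CPEB4 the exact two-sided permutation test over the 10 splits of the pools gave p = 0.1, the smallest this design allows, and p = 0.15 after Benjamini-Hochberg adjustment over the 6 within-pool quantities and sums compared. For CPEB3 the exact p was 0.7. The summed RPKM of the 4 was 704, 707 and 806 in the high-performing pools and 709 and 601 in the low-performing pools, which overlapped (exact permutation p = 0.5).

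ZAR1 and ZAR1L are related proteins with a zinc-binding C terminus that bind maternal mRNA. In mice lacking ZAR1 most embryos arrest soon after fertilisation, and mouse oocytes lacking both proteins store and translate maternal mRNA poorly. ZAR1L (ENSBTAG00000026384, chromosome 12, positions 28670476 to 28679944, plus strand, 4 merged exons) was the most abundant storage mRNA, at 973, 825 and 879 RPKM in the high-performing pools and 1111 and 1459 RPKM in the low-performing pools. Both low-performing pools lay above every high-performing pool, and pool 2 was the higher. Group means were 892 ± 74.5 RPKM for the high-performing (SD, n = 3) and 1285 ± 247 RPKM for the low-performing pools (SD, n = 2). ZAR1L had a log2 fold change of 0.52 ± 0.18 (SE), with an interval of 0.097 to 0.93 (limma, adjusted p = 0.101), and the authors' deposited table gave 0.53 with an FDR of 0.00644. It stood at 0.32 without low-performing pool 2 and at 0.71 without low-performing pool 1, and with quantile normalization it was 0.13.

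ZAR1 (ENSBTAG00000004886, chromosome 6, positions 67172309 to 67176434, plus strand, 4 merged exons) had 525, 496 and 487 RPKM in the high-performing pools and 540 and 594 RPKM in the low-performing pools. The groups did not overlap, but low-performing pool 1 exceeded high-performing pool 1 by little. ZAR1 had a log2 fold change of 0.17 ± 0.14 (SE), with an interval of -0.15 to 0.50 (limma, adjusted p = 0.393), and it turned to -0.13 with quantile normalization. It was 0.10 without low-performing pool 2. ZAR1L exceeded ZAR1 in every pool. The ratio of their RPKM was 1.85, 1.67 and 1.81 in the high-performing pools and 2.06 and 2.46 in the low-performing pools. The ratio was thus higher in both low-performing pools than in any high-performing pool, 1.77 ± 0.097 (SD, n = 3) against 2.26 ± 0.28 (SD, n = 2). The exact two-sided permutation test gave p = 0.1, the smallest this design allows, and p = 0.15 after the same adjustment.

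**Figure D3:**
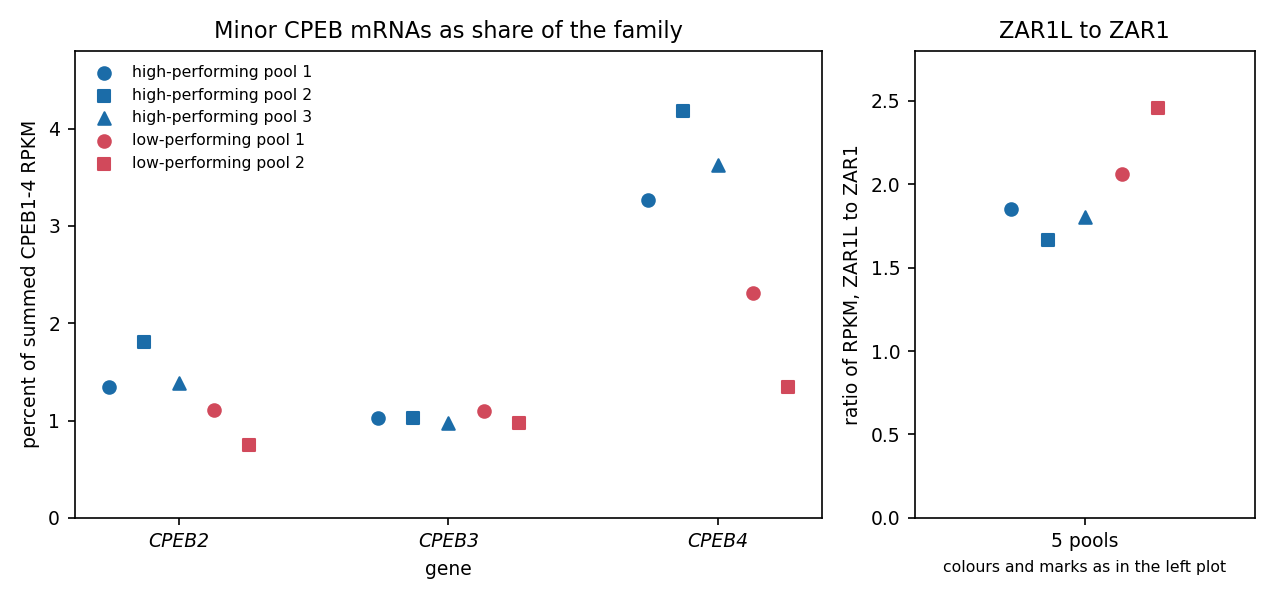
Left, CPEB2, CPEB3 and CPEB4 as a percent of the summed RPKM of CPEB1 to CPEB4 in each pool; right, the ratio of ZAR1L to ZAR1 RPKM in each pool (blue, 3 high-performing pools; red, 2 low-performing pools). The CPEB4 share is 3.26% to 4.18% in the high-performing and 1.34% to 2.31% in the low-performing pools, the CPEB3 shares overlap, and the ZAR1L to ZAR1 ratio is highest in the low-performing pools.

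YBX2, PATL2 and DDX6 belong to the particles that keep stored mRNA silent. YBX2 (ENSBTAG00000009126, chromosome 19, positions 26988948 to 26996169, minus strand), called MSY2 in mice, is a cold-shock domain protein that coats mRNA in mouse oocytes and male germ cells. It had 340, 440 and 472 RPKM in the high-performing pools and 317 and 328 RPKM in the low-performing pools. The low-performing pools lay close together and just under high-performing pool 1, so the spread was among the high-performing pools. Group means were 417 ± 68.9 RPKM for the high-performing (SD, n = 3) and 322 ± 8.15 RPKM for the low-performing pools (SD, n = 2). YBX2 had a log2 fold change of -0.36 ± 0.18 (SE), with an interval of -0.77 to 0.053 (limma, adjusted p = 0.182), and -0.62 with quantile normalization. Exons of YBX2 share 157 bases with SLC2A4 on the other strand, which had a mean of 7.68 RPKM.

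PATL2 (ENSBTAG00000001558, chromosome 10, positions 103060241 to 103065307, minus strand), an oocyte repressor whose loss blocks oocyte maturation in humans, had 66.4, 65.5 and 65.9 RPKM in the high-performing pools and 72.4 and 59.2 RPKM in the low-performing pools. The high-performing pools were nearly equal, and the low-performing pools lay on either side of them. PATL2 had a log2 fold change of -0.0095 ± 0.14 (SE), with an interval of -0.33 to 0.31 (limma, adjusted p = 0.965), and 0.13 without low-performing pool 2. DDX6 (ENSBTAG00000009067, chromosome 15, positions 29361063 to 29392143, minus strand), an RNA helicase found in repressor particles and processing bodies of most cells, had 9.31, 8.68 and 10.7 RPKM in the high-performing pools and 8.003 and 4.98 RPKM in the low-performing pools. The groups did not overlap, though low-performing pool 1 lay near high-performing pool 2. DDX6 had a log2 fold change of -0.52 ± 0.20 (SE), with an interval of -0.99 to -0.058 (limma, adjusted p = 0.116). It was -0.23 without low-performing pool 2 and -0.82 without low-performing pool 1.

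DAZL (ENSBTAG00000000502, chromosome 1, positions 153640084 to 153663068, minus strand), which in mouse oocytes binds maternal mRNAs and promotes their translation together with CPEB1, had 38.8, 43.9 and 43.4 RPKM in the high-performing pools and 31.6 and 22.9 RPKM in the low-performing pools. All high-performing pools lay above both low-performing pools. Group means were 42.0 ± 2.81 RPKM for the high-performing (SD, n = 3) and 27.2 ± 6.18 RPKM for the low-performing pools (SD, n = 2). DAZL had a log2 fold change of -0.62 ± 0.17 (SE), with an interval of -1.01 to -0.23 (limma, adjusted p = 0.0829), and the authors' deposited table gave -0.63 with an FDR of 0.0226. It was -0.40 without low-performing pool 2 and -0.85 without low-performing pool 1.

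The low-performing pools did not stand equally far from the high-performing mean. Relative to that mean, CPEB4 lay at -0.69 in low-performing pool 1 and at -1.63 in pool 2 in log2(RPKM + 1), and DDX6 at -0.23 and -0.82. ZAR1L lay at 0.32 in pool 1 and at 0.71 in pool 2. Pool 2 was the farther of the pair for 9 of the 10 genes, the exception being YBX2, at -0.38 in pool 1 and -0.33 in pool 2. The same count was not made over all genes tested, so it cannot be read as particular to the storage genes.

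**Figure D4:**
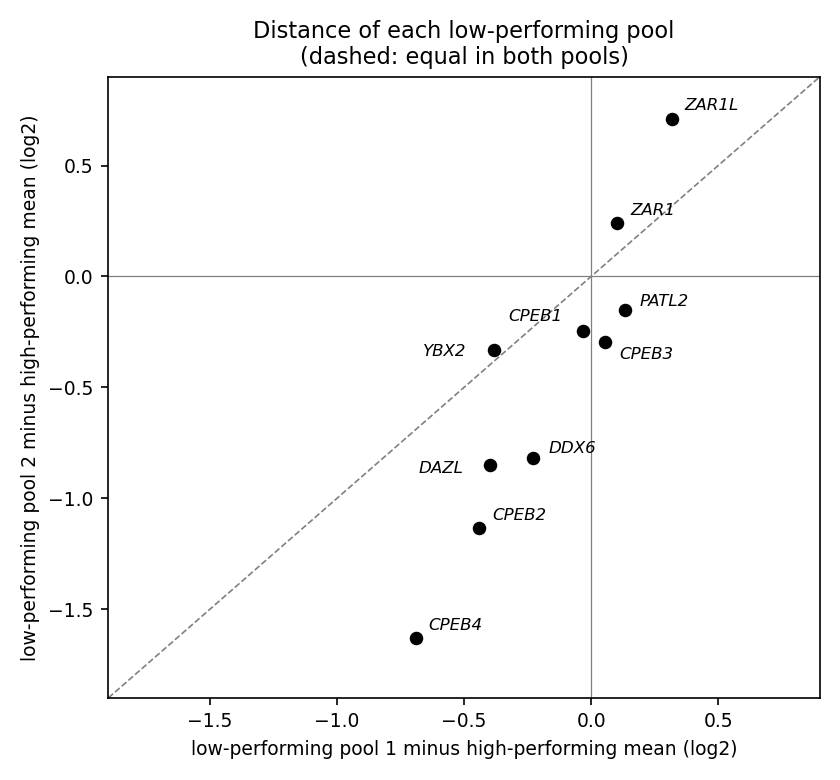
Difference of each low-performing pool from the mean of the 3 high-performing pools in log2(RPKM + 1), pool 1 on the x axis and pool 2 on the y axis, 1 point per storage gene, with the dashed line where both are equal. CPEB4 lies at -0.69 and -1.63, YBX2 sits near the line, and CPEB3 and PATL2 lie above 0 in pool 1 and below 0 in pool 2.

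Fold changes across the whole table went with gene length. Over all genes tested the median log2 fold change was 0.48 for genes of at most 1000 bases and -0.32 for genes over 6000 bases, where 67.0% of genes were lower without overlap. The storage genes ranged from PATL2 at 1071 bases, YBX2 at 1303, ZAR1 at 1478, ZAR1L at 1522 and CPEB2 at 2082 to DAZL at 2996, CPEB1 at 3317, DDX6 at 6127, CPEB4 at 6565 and CPEB3 at 7327 bases. With each pool's trend over length removed, CPEB4 stood at -0.85 ± 0.20 (SE), CPEB2 at -0.81 ± 0.22 (SE) and DAZL at -0.51 ± 0.13 (SE). YBX2, a short gene, stood farther from 0 at -0.60 ± 0.19 (SE), with an interval of -1.04 to -0.16, and PATL2 moved to -0.34 ± 0.16 (SE). DDX6 came to -0.22 ± 0.15 (SE), ZAR1L to 0.35 ± 0.15 (SE) and ZAR1 to -0.01 ± 0.11 (SE), while CPEB1 and CPEB3 turned to 0.0095 and 0.22. The intervals of DDX6 (-0.57 to 0.13) and ZAR1L (-0.0035 to 0.70) then included 0. With the trend removed 7 of the 10 were again without overlap, beside 53.4% of all genes tested, but the set differed. DDX6 and ZAR1 now overlapped, while CPEB3 was higher and PATL2 lower in both low-performing pools than in any high-performing pool. The smallest adjusted p among the 10 was 0.107 in that limma fit, which called 0 genes.

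Proteins that work with the storage genes were read from 6 lists holding 91 genes, of which 89 were matched and 82 tested. No listed gene passed limma over all genes tested, so for each list its counts and the 2 members with the smallest p are given, to be read beside the 58.7% of all genes tested without overlap (29.3% lower, 29.4% higher). Of 16 genes for the cytoplasmic polyadenylation machinery and CPEB regulators, 4 were lower and 6 higher without overlap, 62.5% in all, around a median of 0.10, which was -0.0062 with quantile normalization. CPSF2, a subunit of the complex that reads the polyadenylation signal, averaged 29.1 ± 1.13 RPKM in the high-performing pools (SD, n = 3) against 19.3 ± 3.51 RPKM in the low-performing pools (SD, n = 2), which put its log2 fold change at -0.58 ± 0.15 (SE). GSK3B, a kinase, stood at -0.76 ± 0.24 (SE).

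Of 6 poly(A)-binding proteins and their partners tested, 3 were lower and 1 higher without overlap, 66.7% in all beside 58.7% of all genes, around a median of -0.19. That median was -0.34 with the length trend removed and -0.35 with quantile normalization. Leaving out low-performing pool 2 gave a median of -0.06, and leaving out pool 1 gave -0.32. PABPC4, a cytoplasmic poly(A)-binding protein, averaged 101 ± 16.2 RPKM in the high-performing pools (SD, n = 3) against 49.3 ± 19.8 RPKM in the low-performing pools (SD, n = 2), which put its log2 fold change at -1.06 ± 0.26 (SE). PAIP2, an inhibitor of poly(A)-binding protein, stood at 0.53 ± 0.13 (SE). Of 12 processing-body and repressor-particle proteins, 7 were lower and 0 higher without overlap, around a median of -0.26. Their share of 58.3% in either direction is at the background of 58.7%. All of it was lower, however, where 29.3% of all genes tested were lower without overlap. Among genes of 4001 to 6000 bases, 55.0% were lower without overlap. PATL1, the somatic relative of PATL2, averaged 12.7 ± 0.506 RPKM in the high-performing pools (SD, n = 3) against 7.94 ± 2.89 RPKM in the low-performing pools (SD, n = 2), which put its log2 fold change at -0.66 ± 0.20 (SE), and the decapping cofactor DCP1A stood at -0.48 ± 0.18 (SE). The median length of this list was 4287 bases. Its median fold change was -0.08 with the length trend removed, -0.11 without low-performing pool 2 and -0.41 without low-performing pool 1.

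Of 15 Y-box relatives and other mRNA-packaging proteins, 10 were lower and 0 higher without overlap, 66.7% in all beside 58.7% of all genes, around a median of -0.32. It was -0.25 with the length trend removed, -0.47 without low-performing pool 1 and -0.23 without low-performing pool 2. The median length of this list was 3152 bases. Among all tested genes of 3001 to 4000 bases, 41.3% were lower without overlap. YBX1, another Y-box protein, averaged 474 ± 64.1 RPKM in the high-performing pools (SD, n = 3) against 279 ± 79.1 RPKM in the low-performing pools (SD, n = 2). Its log2 fold change was -0.79 ± 0.21 (SE), beside the -0.36 of YBX2. CAPRIN2 stood at -0.53 ± 0.15 (SE). Of 16 DAZ-family, Pumilio, Nanos, Musashi and similar regulators, 8 were lower and 1 higher without overlap, 56.2% in all beside 58.7% of all genes, around a median of -0.17. It was -0.086 without low-performing pool 2, -0.27 for genes with a mean RPKM of at least 5 and -0.28 with quantile normalization. PUM2, a repressor that binds 3' untranslated regions, averaged 18.2 ± 0.22 RPKM in the high-performing pools (SD, n = 3) against 11.5 ± 3.66 RPKM in the low-performing pools (SD, n = 2), which put its log2 fold change at -0.65 ± 0.19 (SE), and ELAVL1, a protein that stabilises AU-rich mRNA, stood at -0.81 ± 0.25 (SE).

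The last list held 20 mRNAs drawn up as targets of CPEB or DAZL, not all of them established as such, and 18 were tested. Here 9 were higher and 5 lower without overlap, 77.8% in all beside 58.7% of all genes, around a median of 0.23. It turned to -0.0087 with quantile normalization and was 0.15 without high-performing pool 2. OOEP, a protein of the subcortical maternal complex, stood at 1.21 ± 0.28 (SE), and SYCP3, a protein of meiotic chromosome axes whose translation DAZL promotes in mouse, averaged 108 ± 22.6 RPKM in the high-performing pools (SD, n = 3) against 196 ± 47.7 RPKM in the low-performing pools (SD, n = 2), which put its log2 fold change at 0.86 ± 0.23 (SE). The median length of these mRNAs was 1798.5 bases, and the median fold change was 0.12 with the length trend removed.

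**Figure D5:**
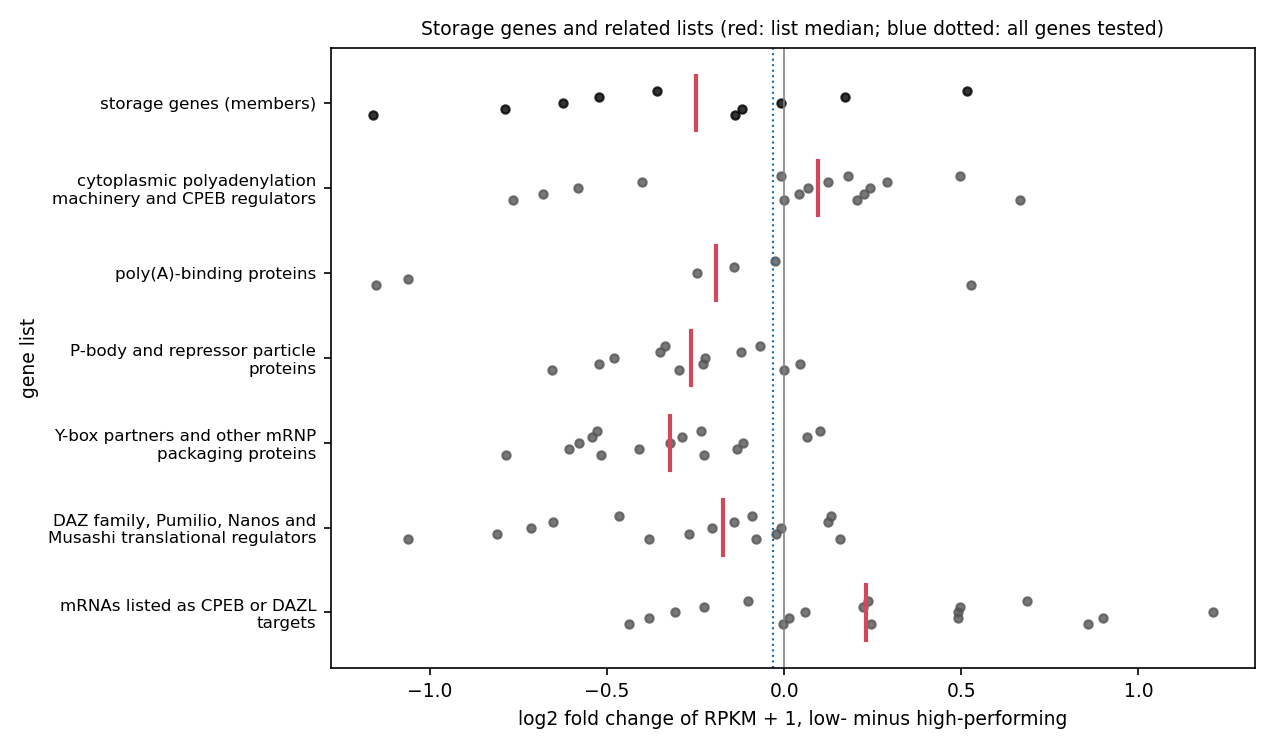
Log2 fold change of RPKM + 1, above 0 where low-performing pools are higher, of each tested gene (points) in the storage genes and the 6 related lists, with each list's median (red bar) and the median of all 12448 genes tested (blue dotted line, -0.03). The packaging and processing-body lists lie mostly below 0, and the list of CPEB or DAZL targets reaches from -0.44 to 1.21.

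Genes with a pattern most like that of CPEB4, the storage gene with the smallest p, were found by the Euclidean distance between log2(RPKM + 1) values of the 5 pools, each gene centred on its mean. They were NIPBL, the cohesin loader, at a distance of 0.073, the microtubule depolymerase KIF2A at 0.087 and the RAS regulator NF1 at 0.0996. NIPBL had 23.4, 30.9 and 28.4 RPKM in the high-performing pools and 16.8 and 8.34 RPKM in the low-performing pools. For ZAR1L, the most abundant storage mRNA, they were the endothelin receptor gene EDNRA at 0.027, the proteasome ubiquitin receptor ADRM1 at 0.038 and the radial spoke gene RSPH9 at 0.0398. EDNRA, at 1.42 to 3.34 RPKM, and RSPH9, at 1.34 to 3.12 RPKM, lay near the filter minimum of 1. There the added 1 shrinks differences between pools, so their nearness to ZAR1L depends on it. ADRM1 had 66.1, 55.6 and 59.0 RPKM and then 76.9 and 97.8 RPKM, the same order of pools as ZAR1L. Likeness over 5 pools is a description of these libraries.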

How the data were processed

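Libraries were prepared from column-purified RNA using a stranded kit for mRNA, as the labels' protocols state. FastQC, featureCounts, edgeR and build ARS-UCD1.2 are named in the submitters' processing notes; those notes as used here give no aligner, version or strand setting. The authors deposited RPKM per pool, with gene lengths; RPKM times length summed to 1000000 in each pool, and 100% of values were whole reads within a relative tolerance of 1e-06. The authors also deposited log2 fold changes, mean log2 CPM, a likelihood ratio score, and p-values with FDR.

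limma 3.58.1 (R 4.3.3) with an intensity trend was fitted to log2(RPKM + 1), which understates changes of low genes, at a two-sided adjusted threshold of 0.05. The script was tested on simulated reads that had no trend over length and no shift of a whole pool. That test checks the code and not how well the fit suits these pools. The storage genes, lists and tests were chosen with earlier results of these data known. Named genes are the 10 storage genes, the 2 members of each list with the smallest p, and the 3 genes nearest in pattern to 2 storage genes. Alternatives were 12 settings and each pool left out. No sequence was used. No sample column was left unmapped. Figures used matplotlib 3.10.9 (Python 3.11.15).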

Additional observations from a re-analysis of the deposited data

How the results depend on the processing

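The count of genes called stayed at 0 under pseudocounts of 0.1 and 0.5, no filter, a mean RPKM of at least 5, quantile normalization, a trimmed-mean factor, no trend, a robust prior, the length trend removed (loess span 0.5) and limma voom. With the replicate number as a block it was 833, with 1 storage gene, CPEB4 (limma, adjusted p = 0.00875), and with the block and the length trend removed it was 0. In the block fit high-performing pool 3 has no partner, so the difference rests on the pools numbered 1 and 2, and little is left to estimate spread from. CPEB4 stood at -1.11 there, as it did without a block and without high-performing pool 3 (limma, adjusted p = 0.234). Whether pools of the same number belong together is not stated in the labels. Deviations from the group means correlated at -0.48 for the pools numbered 1 and -0.26 for those numbered 2 across genes, which cannot show how pools were paired. With a pool left out, genes called ranged from 0 to 5436, storage genes called from 0 to 5, those without overlap from 7 to 10 (beside 63.8% to 85.1% of all genes, the highest of both without low-performing pool 1) and their median from -0.33 to -0.13; a lone low-performing pool is assumed to vary like the others. The median was -0.48 with quantile normalization. Signs turned with the length trend removed for CPEB1 (0.0095), CPEB3 (0.22) and ZAR1 (-0.012), and with the block added to it for the same 3 genes (0.074, 0.26 and -0.024). They also turned with quantile normalization for ZAR1 (-0.13). With a pool left out, CPEB3 ranged from -0.30 to 0.054, PATL2 from -0.15 to 0.13 and the difference in the CPEB3 share from -0.031 to 0.086 percentage points, with CPEB3 and PATL2 above 0 without low-performing pool 2 and the share below 0 without low-performing pool 1. The causes were not tested. CPEB2, CPEB4, YBX2, DDX6, DAZL and ZAR1L kept their direction under all 17 alternatives.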
